A study of Mus musculus with 12 samples.

Results

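Haem is built by a chain of enzymes that starts and ends in the mitochondrion, and the 8 enzymes described here are Alas1, Alas2, Alad, Uros, Urod, Cpox, Ppox and Fech. They were taken by name: a probe belonged to an enzyme when its RefSeq accession mapped to that symbol, and the brightest probe stood for the gene. These 8 genes were among 20284 named genes on a one-colour Agilent array, and 7 of them were among the 13712 genes that were bright enough to test.

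The arrays measured RNA from 2 bone marrow populations of recipient mice that had been repopulated with fetal liver cells (strain label C57BL/6). LSK cells are the lineage-negative, Sca-1-positive, Kit-positive fraction that holds stem and multipotent progenitor cells, and GMPs are granulocyte-macrophage progenitors. Each population was taken from wild-type cells, from Tet2KD/KD cells with a knockdown of the DNA demethylase gene Tet2, from Ezh2-/- cells without the histone methyltransferase gene Ezh2, and from cells with both changes (Tet2KD/KDEzh2-/-, called double mutant here). The fifth and the sixth conditions were Tet2KD/KDEzh2-/- cells from mice with disease, labelled MDS/MPN (myelodysplastic/myeloproliferative neoplasm) and RAEB (refractory anaemia with excess of blasts). That gives 12 arrays with 1 array per group, so no group was repeated and replication came from the design. The labels give no age and do not say how many animals stood behind an array, how Ezh2 was deleted, or how many host cells remained.

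Haem synthesis begins with 5-aminolevulinate synthase, which joins glycine to succinyl-CoA and sets the pace of the route. Mammals carry this step in a pair of genes: Alas1 works in nearly all tissues and is repressed by haem itself, whereas Alas2 is the erythroid form that serves haemoglobin production. Granulocyte precursors also need haem, since myeloperoxidase and the NADPH oxidase cytochrome of neutrophils carry it.

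The start-site regions of the Alas pair are shown because Alas1 was well above background on all 12 arrays and Alas2 on 1. They are the 250 bases before an annotated start in the RefSeq promoter table (GRCm38.p6). From it 10 windows for 7 of the 8 enzymes were used, and none for Fech. The selection of enzyme windows left out 1 chromosome, which the counts over all windows kept. Alas1 is read from the minus strand of chr9:106247955-106248204 and Alas2 from the plus strand of chrX:150547167-150547416. Capitals mark motif letters found on either strand, so also their reverse complements. The first motif is AGATAA, which GATA factors bind. KLF and SP factors bind the second, CACCC. The third is the TATA box, TATAAA.
Alas1: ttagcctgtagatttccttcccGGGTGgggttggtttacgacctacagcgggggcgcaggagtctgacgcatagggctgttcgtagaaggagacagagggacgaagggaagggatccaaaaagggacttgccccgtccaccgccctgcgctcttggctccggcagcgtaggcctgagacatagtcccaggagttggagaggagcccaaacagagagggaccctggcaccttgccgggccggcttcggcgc
Alas2: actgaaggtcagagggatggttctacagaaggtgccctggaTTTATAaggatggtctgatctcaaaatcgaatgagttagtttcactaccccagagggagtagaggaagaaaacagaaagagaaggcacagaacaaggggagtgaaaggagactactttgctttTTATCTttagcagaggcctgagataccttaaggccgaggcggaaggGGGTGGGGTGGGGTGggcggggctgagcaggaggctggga
The Alas2 window held AGATAA once, 86 bases before the start, CACCC 3 times and TATAAA once, 209 bases before the start. Among all 32851 windows of the table, 9.99% held AGATAA, 52% held CACCC and 12.4% held TATAAA. Neither Alas1 window held AGATAA or TATAAA, and each held CACCC once. Alas2 was the only one of the 7 enzymes with AGATAA. A further 30 bases of Alas1, from chr9:106247904-106247933 on the minus strand, lie before its other annotated start and hold CACCC and, on both strands with overlap, GCATGCG, the core of the motif of the respiratory-gene factor NRF1. Both are in capitals.
Alas1 site: CACCCaaggCGCATGCGcggcggtcactcc
GCATGCG occurred in 3.02% of all windows and in no other of the 10 windows. TGANTCA (AP-1 and NF-E2) and TGACGTCA (CREB) occurred in none of the 10 windows, against 6.75% and 1.55% of all windows. These matches describe letters and not binding, which was not measured.

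Before the enzymes, the arrays were checked. The 75th percentile of the gene spots, the value to which each array was scaled, ran from 168.5 to 389.4 units, 45.6% to 52.3% of spots were well above background, and no gene spot was saturated. Tet2 was between -1.61 and -0.64 (log2 relative to the 75th percentile) on the 4 knockdown arrays without disease and between 0.12 and 1.57 on the 4 arrays without knockdown. On the diseased arrays, which carry the knockdown too, it was -1.27 and -1.22 in LSK cells and -1.77 and -3.09 in GMPs. The populations carried their own markers: 12 of 13 tested GMP genes were higher in GMPs and all 12 LSK and stem cell genes tested were lower there. Of all 13712 genes tested, 3523 were called higher in GMPs and 2585 lower. The 8 arrays without disease shared slide 1, with LSK cells in row 1 and GMPs in row 2. Diseased LSK cells were on slide 2 and diseased GMPs on slide 3, so within a cell type disease and slide cannot be told apart, and cell type cannot be told apart from slide row without disease or from slide with it. All levels below are log2 signal relative to the array's 75th percentile. A level compares arrays for 1 probe and is not set against the level of another gene.

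**Figure D1:**
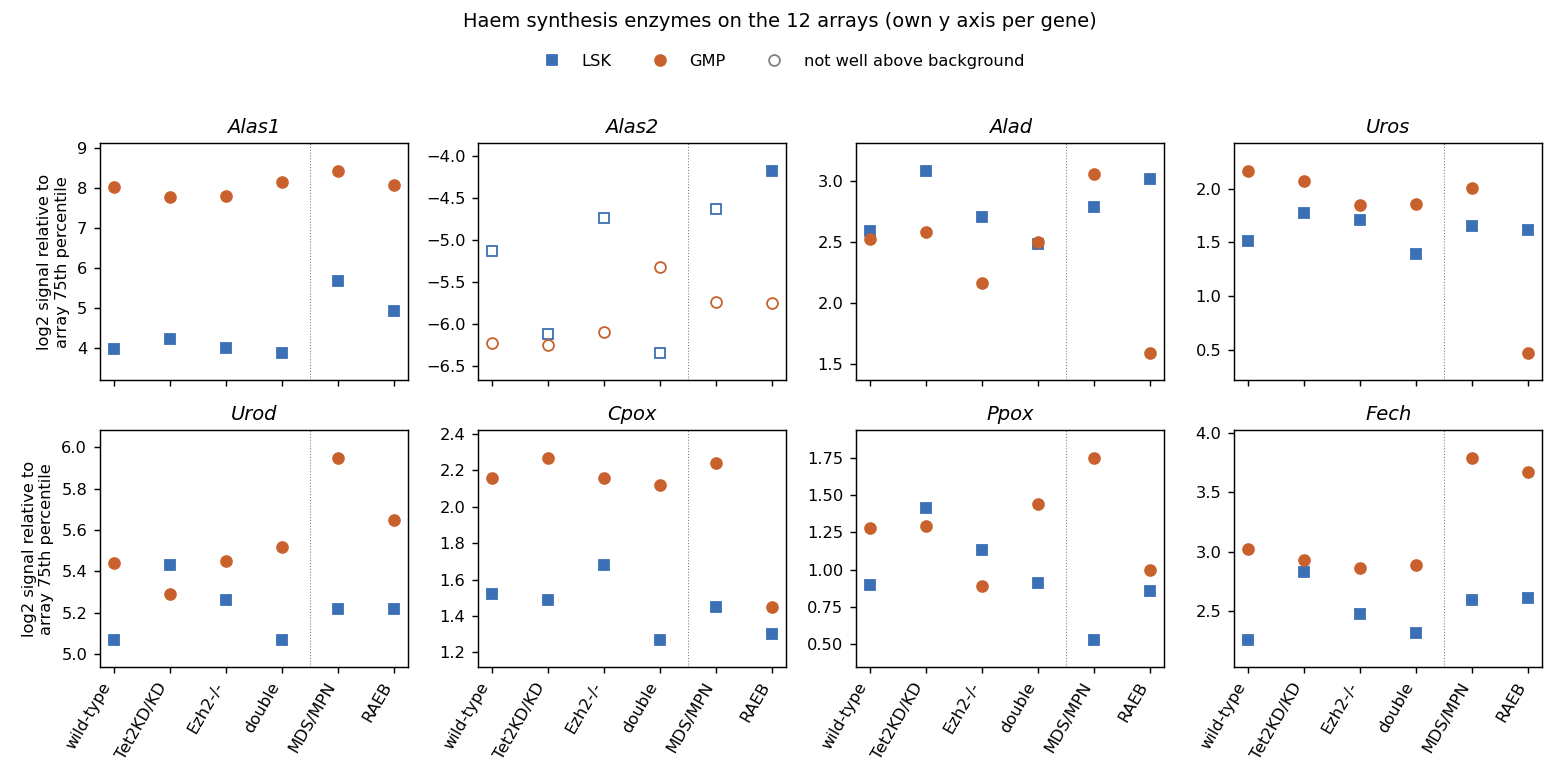
Levels of the 8 enzymes on the 12 arrays, 1 panel per gene with its own axis. Each point is 1 array, squares are LSK cells and circles are GMPs, open points were not well above background, and the dotted line separates the arrays with disease. Alas1 is at or above 7.78 on all 6 GMP arrays and at or below 5.69 on all 6 LSK arrays, and Alas2 is open on 11 of 12 arrays.

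Alas1 was measurable on all 12 arrays and Alas2 on 1. In LSK cells the Alas1 level was 3.97 in wild-type, 4.22 in Tet2KD/KD, 3.99 in Ezh2-/- and 3.88 in double mutant cells, then 5.69 with MDS/MPN and 4.93 with RAEB. In GMPs it was 8.04 in wild-type, 7.78 in Tet2KD/KD, 7.81 in Ezh2-/- and 8.17 in double mutant cells, then 8.44 with MDS/MPN and 8.08 with RAEB. All 6 GMP arrays lay above all 6 LSK arrays, and the diseased LSK arrays stood between the groups.

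Alas1 was 12.2-fold higher in GMPs than in LSK cells (log2 difference 3.60, SE 0.21, limma adjusted p = 1.8e-05, 6 pairs matched by condition). GMPs were higher in 6 of 6 pairs, by 2.75 to 4.28 on the log2 scale, with the smallest gap in MDS/MPN. In bulk RNA, fewer cells of a type and less RNA per cell cannot be told apart. The array carried a pair of Alas1 probes, A_55_P2083649 (used here) and A_55_P1959985. The latter gave a smaller difference of 1.63 (SE 0.19, limma adjusted p = 0.000394), with LSK arrays from -0.95 to -0.13 and GMP arrays from 0.71 to 1.78. On both probes the GMP and LSK arrays did not overlap, so direction did not depend on the probe while size did. The order of the pairs also depended on it. By the latter probe the gap was 0.84 to 2.20 and was largest in MDS/MPN.

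Alas2, the erythroid enzyme, was well above background only in LSK cells with RAEB, at -4.17. It was -5.13 in wild-type, -6.12 in Tet2KD/KD, -4.73 in Ezh2-/-, -6.34 in double mutant and -4.63 in MDS/MPN LSK cells, and between -6.25 and -5.32 on the 6 GMP arrays. Because values below background have no order, no fold and no test is given for it. The erythroid marker list gives the setting: 13 of 18 tested genes were lower in GMPs and none was higher, with a median log2 difference of -2.02. Of all 13712 genes tested, 2585 were called lower, and the median of all was 0.16. Car2, a carbonic anhydrase of red cells, differed by -5.04 (GMP minus LSK) and the globin gene Hbb-bt by -6.55. The summed erythroid signal, in multiples of the 75th percentile, was 183 to 269 in LSK cells without disease and 89.5 to 102 in GMPs without disease. Hemgn, a haematopoietic nuclear protein that did not pass the test (0.27), held most of the GMP sums. Without it the sum was 99.6 to 194 in LSK cells and 8.73 to 11.1 in GMPs, again without disease. The red cell membrane genes Epb42, Sptb and Rhag were not well above background on any array. Others of the list were: Slc4a1, Ermap, Icam4 and Aqp1 on all 6 LSK and all 6 GMP arrays. Rhd was well above background on 6 LSK and 2 GMP arrays.

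Among the 7 enzymes tested, 3 were higher in GMPs and none was lower, where 25.7% of all genes tested were called higher and 44.5% changed in either direction. Their median log2 difference was 0.34, against 0.16 over all genes. The 3 were Alas1, Cpox and Fech. The split of all called genes moved with the scaling: 57.7% were higher here and 45.9% after quantile normalization, which brought the median of all genes from 0.16 to 0.01. Under quantile normalization the same 3 enzymes were called higher, Alad was called lower (-0.57, limma adjusted p = 0.0404), and Urod turned from 0.34 to -0.13 with no call in either.

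The enzymes after the first step differed by little. Alad, which makes porphobilinogen in the cytosol, was 2.48 to 3.08 in LSK cells (median 2.74) and 1.59 to 3.05 in GMPs (median 2.51), and the groups overlapped. Its difference of -0.37 did not pass the test (SE 0.22, limma adjusted p = 0.2, 95% interval -0.88 to 0.14).

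Uros, which closes the ring, was 1.39 to 1.78 in LSK cells and 1.85 to 2.17 on 5 of the GMP arrays, but 0.47 in GMPs with RAEB. That array decided the comparison. Over all pairs the difference was 0.13 (SE 0.24, limma adjusted p = 0.676), and without the RAEB pair it was 0.39 (SE 0.12, limma adjusted p = 0.033).

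Urod, the decarboxylase that follows, was 5.07 to 5.43 in LSK cells and 5.29 to 5.95 in GMPs, with overlap and a difference of 0.34 that did not pass (SE 0.14, limma adjusted p = 0.0822). Without the Tet2KD/KD pair it passed at 0.43 (limma adjusted p = 0.0436). The mitochondrial oxidases came next. Cpox was 1.27 to 1.68 in LSK cells and 2.12 to 2.27 on 5 GMP arrays, with 1.45 in GMPs with RAEB, the one GMP array within the LSK range. It was 1.53-fold higher in GMPs (log2 0.61, SE 0.13, limma adjusted p = 0.00727), in 6 of 6 pairs. Ppox was 0.53 to 1.41 in LSK cells and 0.89 to 1.75 in GMPs, overlapping, with a difference of 0.32 that did not pass (95% interval -0.15 to 0.78).

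Fech, ferrochelatase, puts iron into the finished ring. Its level in LSK cells was 2.26 in wild-type, 2.83 in Tet2KD/KD, 2.48 in Ezh2-/-, 2.32 in double mutant, 2.59 in MDS/MPN and 2.61 in RAEB cells. In GMPs it was 3.02, 2.93, 2.86 and 2.89 in the same order without disease, and 3.79 in MDS/MPN and 3.67 in RAEB. Every GMP array lay above every LSK array, but narrowly: the lowest GMP level was 2.86 (Ezh2-/-) and the highest LSK level 2.83 (Tet2KD/KD). Within pairs the gap was smallest for Tet2KD/KD, at 0.10. The difference was 0.68 (1.6-fold, SE 0.17, limma adjusted p = 0.0133).

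With the 4 diseased arrays alone, only Alas1 among the 7 enzymes passed the test of GMPs against LSK cells. Cpox was then 0.47 (limma adjusted p = 0.382) and Fech 1.12 (0.0758).

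**Figure D2:**
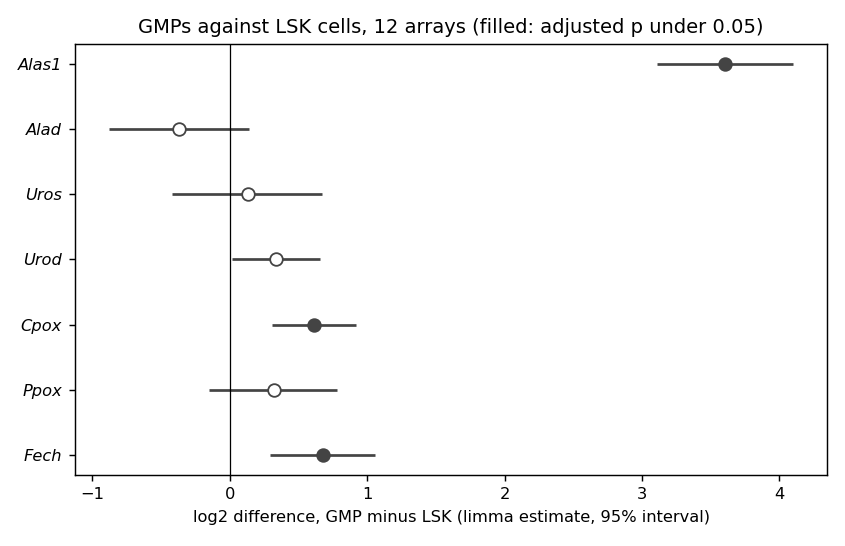
Log2 difference of GMPs minus LSK cells for each enzyme over the 12 arrays, with condition as a block. Points are limma estimates, bars are 95% intervals, and filled points passed an adjusted p of 0.05. Alas1 lies at 3.60, Fech at 0.68 and Cpox at 0.61, and the intervals of Alad, Uros and Ppox include 0.

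The genes whose pattern was most like that of Alas1 over the 12 arrays were Mapkapk3 (Pearson r = 0.996), Elane (0.996), Msrb1 (0.995), Dnajc25 (0.994) and Prtn3 (0.994). Elane and Prtn3 encode serine proteases of neutrophil granules, Mapkapk3 a protein kinase and Msrb1 a methionine sulfoxide reductase. The points fall into clusters by cell type, and 1188 genes (8.66% of those tested) had r above 0.9 with Alas1. Within the 6 GMP arrays, r for these genes was 0.72 to 0.94. Between the enzymes themselves, r over the 12 arrays was 0.94 for Urod with Fech, 0.77 for Alas1 with Cpox and -0.39 for Alas1 with Alad. These correlations are descriptions.

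The genes around the route were compared between the populations too. In the list of precursor supply and mitochondrial carriers, 12 of 19 tested genes were higher in GMPs and 1 was lower, with a median difference of 0.52. Of all genes tested, 25.7% were called higher and 44.5% changed, with a median of 0.16. Tspo, an outer-membrane protein that binds porphyrins, was higher by 1.81 (SE 0.13), the inner-membrane transporter Abcb10 by 1.49, Abcb6 by 1.32 and Tmem14c, which is needed for protoporphyrin import, by 1.08. Tspo2, the erythroid relative of Tspo, was the 1 lower gene (-0.43, limma adjusted p = 0.0432).

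Iron handling genes were higher in GMPs in 7 of 10 cases and lower in none, where 25.7% of all genes were higher and 44.5% changed. Hfe, a regulator of iron uptake, was higher by 1.77, the transferrin receptor Tfrc by 1.29, the ferritin light chain Ftl1 by 1.17 and the ferritin receptor Ncoa4 by 0.62. Of 7 tested genes for haem breakdown and export, 3 were higher and 1 lower. Their median difference was 0.21, against 0.16 over all genes. The haem exporter Flvcr1 (0.81), the haem carrier Slc48a1 (0.55) and the biliverdin reductase Blvra (0.49) were higher and Blvrb (-0.77) was lower. Among 13 haem enzymes and related redox enzymes, 7 were higher and none lower, against the same shares of all genes. Examples are the eosinophil peroxidase Epx (4.86), the cytochrome P450 Cyp4f18 (3.46), myeloperoxidase Mpo (2.56) and the NADPH oxidase subunit Cyba (1.42). Not every protein of that list carries haem, Prdx2 and Cyb5r3 being examples without it, and Mpo and Epx are also in the marker lists.

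Neither genotype change moved the enzymes beyond the spread. For Ezh2 loss, 4 arrays against 4 over both cell types, none of the 7 enzymes passed, where 0.19% of all genes (26 of 13712) did. The largest difference was -0.23 for Alad (SE 0.14, limma adjusted p = 0.75), and Alas1 differed by -0.04 (95% interval -0.37 to 0.30). For Tet2 knockdown none of the 7 passed and 0% of all genes did, with a smallest limma adjusted p of 0.176 and 788 genes at an unadjusted p under 0.05. The largest difference was 0.21 for Ppox (SE 0.16), and Alas1 differed by 0.06 (95% interval -0.27 to 0.40). No gene of the surrounding lists passed in either comparison. A miss here does not show that levels were equal.

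Disease was compared within each population, 2 diseased arrays against 4 without disease. In LSK cells Alas1 rose and was the 1 call among 7 enzymes, where 9.58% of all genes changed and 4.65% rose. Its diseased levels of 4.93 and 5.69 lay above the 3.88 to 4.22 of the other LSK arrays, a 2.46-fold difference (log2 1.30, SE 0.22, limma adjusted p = 0.00814). Without the MDS/MPN array the difference was 0.92, and against the double mutant alone it was 1.43. Each of these fits leaves 1 array in a group, so no test is given for them.

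The other Alas1 probe went the opposite way. It read -0.34, -0.13, -0.34 and -0.42 on the wild-type, Tet2KD/KD, Ezh2-/- and double mutant LSK arrays, -0.42 with MDS/MPN and -0.95 with RAEB, a disease difference of -0.38 (SE 0.23, limma adjusted p = 0.312). With both probes averaged the difference was 0.46 (0.199). The rise of Alas1 in diseased LSK cells thus rests on 1 of 2 probes.

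Markers of GMPs moved with it. In diseased LSK cells 9 of 13 GMP genes rose and 1 fell, where 4.65% of all genes rose and 9.58% changed. The median difference of the 13 was 1.52, against 0.09 over all genes. Elane rose by 2.36, Fcgr3 by 2.32 and Prtn3 by 1.75. Their summed signal was 476 to 694 in LSK cells without disease, 1550 with MDS/MPN, 1140 with RAEB and 4490 to 6890 in GMPs. The summed neutrophil signal was 344 on the LSK MDS/MPN array and 10.9 to 91.9 on the other LSK arrays. The part of these cells in the Alas1 value was not tested.

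**Figure D3:**
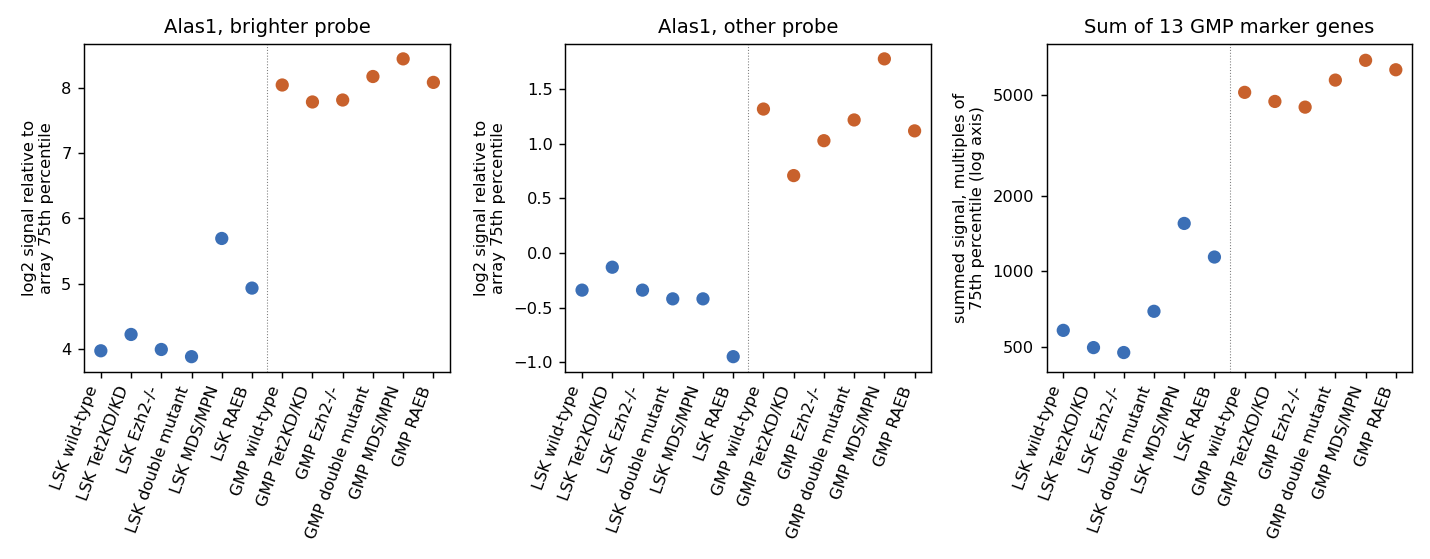
Level of Alas1 by its brighter probe (left) and by its other probe (middle), and the summed signal of 13 GMP marker genes (right, log axis), on each of the 12 arrays. Blue points are LSK cells and orange points GMPs. The diseased LSK arrays stand above the other LSK arrays at left and right (1140 and 1550 against at most 694), while in the middle MDS/MPN equals the double mutant at -0.42 and RAEB is lowest at -0.95.

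In diseased LSK cells the other enzymes tested showed differences between -0.39 (Ppox) and 0.18 (Alad) and none passed. Both diseased Ppox values, 0.53 and 0.86, lay just under the 0.90 to 1.41 of the other LSK arrays (95% interval of the difference -0.93 to 0.14).

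**Figure D4:**
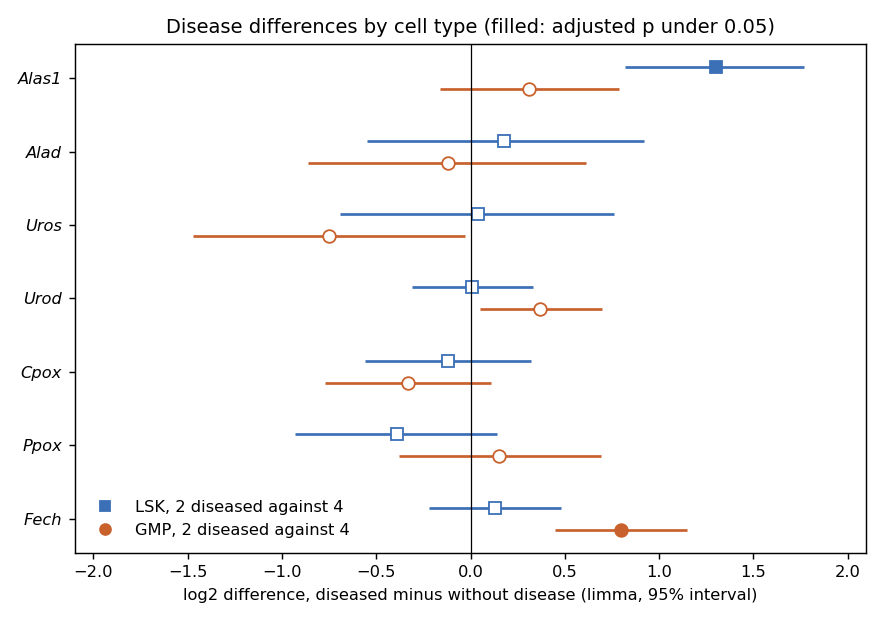
Log2 difference of diseased minus non-diseased arrays for each enzyme, in LSK cells (blue squares) and GMPs (orange circles). Points are limma estimates from 2 arrays against 4, bars are 95% intervals, and filled points passed an adjusted p of 0.05. Alas1 (1.30) is filled in LSK cells and Fech (0.80) in GMPs.

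In GMPs the enzyme that rose with disease was the last of the route. Fech was 3.79 and 3.67 in diseased GMPs against 2.86 to 3.02 in the others, without overlap, which is 1.74-fold (log2 0.80, SE 0.16, limma adjusted p = 0.00748). It was the 1 call among 7 enzymes, where 22.9% of all genes changed and 13.4% rose, so the count was near the share of all genes. The Fech difference was 0.86 without RAEB, 0.74 without MDS/MPN and 0.84 against the double mutant alone. Each of these fits leaves 1 array in a group, so no test is given for them. All 7 megakaryocyte genes tested rose in diseased GMPs, Gp5 by 2.75, Itga2b by 1.73 and Gp9 by 1.39, and their sum was 2.06 to 3.53 without disease, 13.9 with MDS/MPN and 32.9 with RAEB. The summed mast cell, basophil and eosinophil signal was 105 to 161 without disease, 1480 with MDS/MPN and 418 with RAEB. Of its 10 tested genes 1 was called, the eosinophil gene Prg2 (4.26). Differences were positive for 6 of the 10 and negative for the others, among them Cpa3 (-0.79) and Hdc (-0.56). No erythroid marker passed in diseased GMPs, with sums of 107 and 112, and 7.16 and 15.1 without Hemgn. The part of these cells in the Fech value was not tested.

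Alas1 itself did not pass in diseased GMPs (difference 0.31, SE 0.22, limma adjusted p = 0.316). Urod (0.37, limma adjusted p = 0.0874) also missed the threshold, although both diseased Urod values, 5.95 and 5.65, lay above the 5.29 to 5.52 of the others.

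The 2 diseased GMP arrays differed from each other in some of the enzymes. Uros was 2.01 with MDS/MPN and 0.47 with RAEB, Alad 3.05 and 1.59, and Cpox 2.24 and 1.45. The RAEB array was the lowest of the 6 GMP arrays for these 3 genes. RAEB minus MDS/MPN, both on slide 3, was -1.54 for Uros and -1.47 for Alad, so 2 of 7 enzymes were at least 2-fold lower, where 9.13% of all genes were. The same difference was -0.79 for Cpox, -0.75 for Ppox, -0.37 for Alas1, -0.30 for Urod and -0.12 for Fech. A single array against a single array has no replicate check. With RAEB as the only diseased GMP array, the difference from the 4 arrays without disease was -1.52 for Uros, -0.86 for Alad and -0.72 for Cpox. With MDS/MPN as the only one, it was 0.02, 0.61 and 0.07. No test is given for these values, since the lone array would have to be assumed to vary like the other groups. Over both arrays the values were -0.75 for Uros, -0.12 for Alad and -0.33 for Cpox, with no call. The summed neutrophil signal was 702 on the RAEB array, 180 on the MDS/MPN array and 29.2 to 51.6 on the other GMP arrays. Over both diseased arrays 1 of 9 neutrophil genes tested was called higher, where 13.4% of all genes rose. Of the 9 differences 8 were positive. The part of this signal in the enzyme values was not tested.

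**Figure D5:**
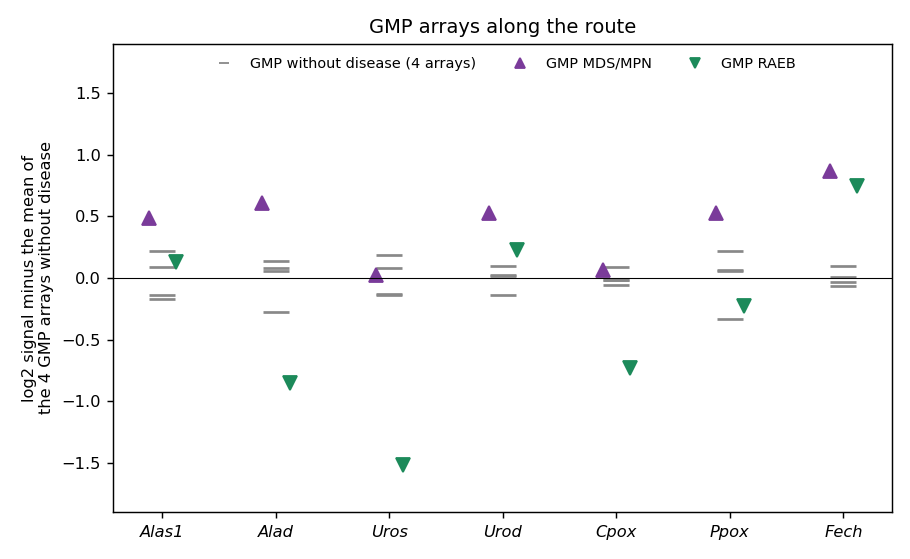
Level on each GMP array minus the mean of the 4 GMP arrays without disease, on the log2 scale, by enzyme. Grey dashes are arrays without disease, purple triangles point up for MDS/MPN, and green triangles point down for RAEB. Fech is high on both diseased arrays (3.79 and 3.67 as levels), while Alad, Uros and Cpox are low with RAEB only.

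The disease differences of the 2 populations were compared directly, as the GMP difference minus the LSK difference. None of the 7 enzymes passed, where 12.9% of all genes did. The value for Alas1 was -0.98 (SE 0.31, limma adjusted p = 0.059) and that for Fech 0.67 (SE 0.22, limma adjusted p = 0.0732). Under quantile normalization both passed (-1.17, limma adjusted p = 0.0299, and 0.64, 0.0454). The Alas1 value depended on single diseased arrays. It was -1.36 without the LSK RAEB array and -1.17 without the GMP MDS/MPN array. It was -0.60 without the LSK MDS/MPN array and -0.80 without the GMP RAEB array. Without the GMP MDS/MPN array, the value was -1.55 for Uros and -1.04 for Alad. Each of these fits leaves 1 array in a group, so no test is given for them. Alas1 did not pass with the mean of both probes (-0.11, limma adjusted p = 0.844). The other Alas1 probe gave 0.76 (0.149), with the opposite sign.

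Among the surrounding genes, 3 of 10 iron genes rose in diseased GMPs and 1 fell, where 13.4% of all genes rose and 22.9% changed. The ferritin genes Fth1 (0.63) and Ftl1 (0.57) and the iron-responsive aconitase Aco1 (0.65) rose, and Tfrc fell (-1.15). In the supply list 1 of 19 rose, the mitochondrial iron importer Slc25a28 (0.70), and 1 fell. Slc48a1 was the 1 of 7 breakdown and export genes to rise (0.69), and the cyclooxygenase Ptgs1 (1.47) the 1 of 13 haem and redox enzymes, so in these 3 lists the share that rose was near or below that of all genes. In diseased LSK cells, where 4.65% of all genes rose and 9.58% changed, no iron gene passed. Slc25a39, a mitochondrial glutathione carrier, was the 1 of 19 supply genes to rise (1.13), and among the 13 haem and redox enzymes Mpo (1.40) and Cyb5r3 (0.88) rose while catalase Cat (-0.58) and Ptgs2 (-2.53) fell. The GMP difference minus the LSK difference passed for Aco1 (0.98), Ptgs1 (2.19) and Mpo (-1.11).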

How the data were processed

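Total RNA was extracted with Trizol, amplified and labelled with Cy3, per the labels' protocols. Per the file headers, spots were read with Agilent Feature Extraction 10.7.1.1 on a design of build mm9, and the deposited intensity is a background-corrected signal per spot, not scaled between arrays. The deposited value table held the same intensity on all 62976 spots.

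Control spots and spots marked as outliers were left out. Of 55681 gene probes, 26762 had 1 symbol through RefSeq (GRCm38.p6, used for names and start-site windows), none had several and 28919 had none. Levels are log2 intensity minus the array's 75th percentile. Genes entered the tests if the brightest probe passed the well-above-background flag on 2 or more of the 12 arrays. limma 3.58.1 (R 4.3.3, lmFit and eBayes) was used with two-sided tests and Benjamini-Hochberg adjustment over 13712 genes at 0.05. GMPs against LSK cells used condition as a block. Genotype effects came from the 8 non-diseased arrays in a model that also held cell type and the second genotype. Disease used 4 groups in 1 fit. The code was tested on simulated data. With 1 array per group, p-values measure the spread between conditions, and the number of arrays limits the precision.

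The enzymes, gene lists and marker lists were chosen with earlier results of these data known. Named genes beside the enzymes are the up to 4 genes per list (3 per marker list) with the smallest p for GMPs against LSK cells, up to 4 per list called in another comparison, and the 5 genes with ordinary symbols closest to Alas1. Tspo2, Hemgn and the red cell membrane genes were named after their values were seen. Some genes are not reported here. Alternatives were normexp on median signals with an offset of 50 (mean signals were not used here), quantile normalization, other filters and probe rules, other designs, the value table, and leaving out each array. The other Alas1 probe and the erythroid sum without Hemgn were added after seeing the data.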

Additional observations from a re-analysis of the deposited data

How the results depend on the processing

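Over 42 results for single enzymes, 825 values were computed under alternatives: 6 lost their call, 20 gained one and 1 called result turned its direction. A further 44 values had the opposite sign with no call in either setting. The called 1 was Alas1 in diseased LSK cells, which was -0.38 by its other probe. With the 4 diseased arrays alone, GMPs against LSK cells gave 1734 genes and 1 enzyme. Ezh2 loss gave 78 genes with normexp, 15 with quantile normalization, 12 with no filter on dim probes, 78 with a trended and robust variance, 7 with an interaction term, 224 within LSK cells and 0 within GMPs. Tet2 knockdown gave 70 genes within LSK cells. Disease in GMPs gave 6004 genes with no filter, and 9 genes and 0 enzymes against the double mutant only. Disease in LSK cells gave 4047 genes with normexp, 5451 with no filter, 39 genes and 0 enzymes against the double mutant only, and 0 enzymes with the mean of all probes. The difference between the disease effects gave 3811 genes and 1 enzyme with normexp, 2 enzymes with quantile normalization, 6273 genes and 2 enzymes with no filter, and 1 enzyme with a trended and robust variance. The cause was not tested. Disease fits against the double mutant only, or without 1 diseased array, leave 1 array in a group. Their counts hold no check of how that array varies. Leaving out 1 array at a time gave 4486 to 6770 genes and 3 to 4 enzymes for GMPs against LSK cells, 0 to 10 genes for Ezh2 loss and 0 to 1 for Tet2 knockdown, with 0 enzymes in both. It gave 2046 to 3557 genes and 1 to 4 enzymes for disease in GMPs, 187 to 2363 genes and 0 to 1 enzymes for disease in LSK cells, and 384 to 3759 genes and 0 to 3 enzymes for the difference. The lowest gene counts for disease in LSK cells and for the difference came without the LSK MDS/MPN array. The highest came without the GMP MDS/MPN array, and for disease in LSK cells equally without the GMP RAEB array. The split of called genes moved with quantile normalization from 48.6% to 59.2% higher for disease in LSK cells, from 58.5% to 49.3% for disease in GMPs and from 53.9% to 43.3% for the difference. Without the pairing by condition, GMPs against LSK cells gave 6336 genes and 4 enzymes, Urod being added (limma adjusted p = 0.0435). Alas2 is limited by signal over background, which 11 of 12 arrays did not reach.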
